A study of Mus musculus with 4 samples.

Results

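Adipose progenitors are the fibroblast-like cells of the fat pad stroma from which new fat cells arise, and 10 genes that mark them or the fibroblasts beside them were taken as a listed set. A gene entered with the probe set that the platform annotation ties to its symbol alone, and where a gene had several, the brightest on average was used. Of the 10 genes, 9 had such a probe set, 1 each, among 18820 genes in all. They were Pdgfra, Dpp4, Pi16, Cd34, Dcn, Lum, Thy1, Zfp423 and Fap. Ly6a, the stem cell antigen Sca-1, was not analysed here. All 9 passed the filter on low signal, which kept 11292 genes, those whose log2 intensity averaged 5.45 or more.

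The arrays measured epididymal adipose tissue, a visceral depot, of C57BL/6 mice. Of 4 arrays, 1 held wildtype mice fed low fat (10 kcal% fat), 1 held wildtype mice fed high fat (45 kcal% fat), and 2 held CD1d-/- mice fed low fat, here called KO arrays 1 and 2. The CD1d-/- mice carry a null allele in every cell, backcrossed to C57BL/6J over 10 to 12 generations. CD1d presents lipid antigens to natural killer T cells, and the series concerns the role of those cells in the insulin resistance of lean mice. Feeding began at an age of 10 to 11 weeks and lasted 18 to 19 weeks in every group. Each group's RNA was a pool of 4 to 6 mice, so the spread between animals was not measured. Whether the KO arrays came from separate pools is not stated, and p-values therefore measure only the spread between these arrays, which may be technical. Values are log2 of the deposited intensity throughout, and differences are log2 differences unless given as a fold.

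Fat pads hold a layered stroma. Cells positive for DPP4 and PI16 line the interstitium as early progenitors, while cells committed to adipogenesis sit near vessels and carry ZFP423, a zinc finger regulator of preadipocyte fate. PDGFRA, a receptor for platelet-derived growth factors, marks progenitors and fibroblasts alike, and its ligands act on stromal growth and fibrosis. CD34 and THY1 (CD90) are surface glycoproteins used to sort these cells, but CD34 is also found on endothelium and THY1 on T cells. Decorin and lumican, encoded by Dcn and Lum, are small leucine-rich proteoglycans that bind collagen fibrils. FAP, a surface protease of activated fibroblasts, is a close relative of DPP4, and in the RefSeq gene order of GRCm38.p6 the genes lie on chromosome 2 with 1 protein-coding gene, Gcg, between them. Dcn and Lum are direct neighbours on chromosome 10, with 0 protein-coding genes between them.

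The members were sorted into 2 array groupings, chosen after the values were seen. Pi16, Dpp4 and Thy1 were lower on both KO arrays than on either wildtype array, beside 25.2% of all tested genes. Pdgfra, Cd34, Dcn, Lum, Zfp423 and Fap were lower on the wildtype low-fat array and KO array 1 than on the other arrays. That held for 39.2% of all tested genes, and within it Dcn and Zfp423 each had an order of their own. RefSeq promoter windows were listed for 5 members. Those of Pi16 and Dpp4 are shown for the first grouping and that of Cd34 for the second. They are printed as a description only, and no link between windows and groupings was tested. Windows ran over the 250 bases before the listed start in GRCm38.p6. The lines below give, 5′ to 3′ on the gene's strand, only the bases outside the gene's RefSeq span, 164 for Pi16, 166 for Dpp4 and 250 for Cd34. The window of Pdgfra lay inside its gene's span and is not printed. Capitals mark matches to 5 searched motifs.
Pi16, chr17:29318632-29318795, plus strand: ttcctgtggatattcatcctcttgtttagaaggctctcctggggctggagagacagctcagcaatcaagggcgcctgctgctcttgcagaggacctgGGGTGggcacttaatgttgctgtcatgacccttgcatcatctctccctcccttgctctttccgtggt
Dpp4, chr2:62412316-62412481, minus strand: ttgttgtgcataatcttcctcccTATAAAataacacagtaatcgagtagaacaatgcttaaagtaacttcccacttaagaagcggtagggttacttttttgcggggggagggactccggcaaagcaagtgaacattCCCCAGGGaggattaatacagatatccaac
Cd34, chr1:194938571-194938820, plus strand: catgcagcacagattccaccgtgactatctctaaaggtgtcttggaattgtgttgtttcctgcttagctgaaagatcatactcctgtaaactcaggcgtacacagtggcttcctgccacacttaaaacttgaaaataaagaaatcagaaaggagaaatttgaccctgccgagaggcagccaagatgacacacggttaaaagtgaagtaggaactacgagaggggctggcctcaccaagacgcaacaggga

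Both strands were searched. The motifs were the CAAT box CCAAT, the TATA box TATAAA, the GC box GGGCGG, the Kruppel-like factor core CACCC, and CCCNNGGG, a core bound by early B cell factors, which also act in preadipocytes. Pi16 held CACCC on the other strand 153 to 149 bases before the listed start, and CCAAT 64 to 60 bases before it, in the stretch not printed. Dpp4 held TATAAA at 227 to 222 and CCCNNGGG at 114 to 107 bases before the start, and CACCC at 19 to 15, not printed. Cd34 held none of the 5 motifs. The window of Pdgfra, not printed, held CACCC at 192 to 188 and at 187 to 183, so CACCC was found among genes of both groupings. Over 32851 windows of the same length it was in 52%, while CCAAT was in 33.8%, GGGCGG in 32.7%, TATAAA in 12.4% and CCCNNGGG in 11.8%. CpG dinucleotides numbered 2 in the whole window of Pi16, 4 in that of Dpp4 and 6 in that of Cd34, against a median of 6 over all windows.

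Arrays were close in overall scale, with median intensities between 51.1 and 52.2 over 35556 probe sets. Cd1d1, the disrupted gene, was at 11.80 on both wildtype arrays and at 3.74 and 3.98 on KO arrays 1 and 2, as the labels have it. The median of all 11292 genes lay 0.05 above the wildtype low-fat array with high fat, and at −0.17 and −0.02 against it on KO arrays 1 and 2. Adipocyte markers were level in sum, with an intensity 1.01-fold to 1.02-fold that of the wildtype low-fat array on the other 3 arrays. A single marker among them, Lep, was not level. It was at 11.85 on the wildtype low-fat array, 12.85 on the wildtype high-fat array, and 11.97 and 12.93 on KO arrays 1 and 2. Epididymal epithelium genes were not level: the summed intensity of 14 was 16406.8 on the wildtype low-fat array, 224.5 on the wildtype high-fat array, and 334.1 and 1844.2 on KO arrays 1 and 2. Smooth muscle and pericyte markers (10 genes) summed to 9716.6 on KO array 1 and to between 5546.4 and 5883.7 on the other arrays. Not all of them followed the sum. Rgs5, Cspg4 and Kcnj8, named after their values were seen, were lower on KO array 1 than on KO array 2, and the rest were higher. No gene of any list was at 0, the lowest deposited intensity being 5.71.

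**Figure D1:**
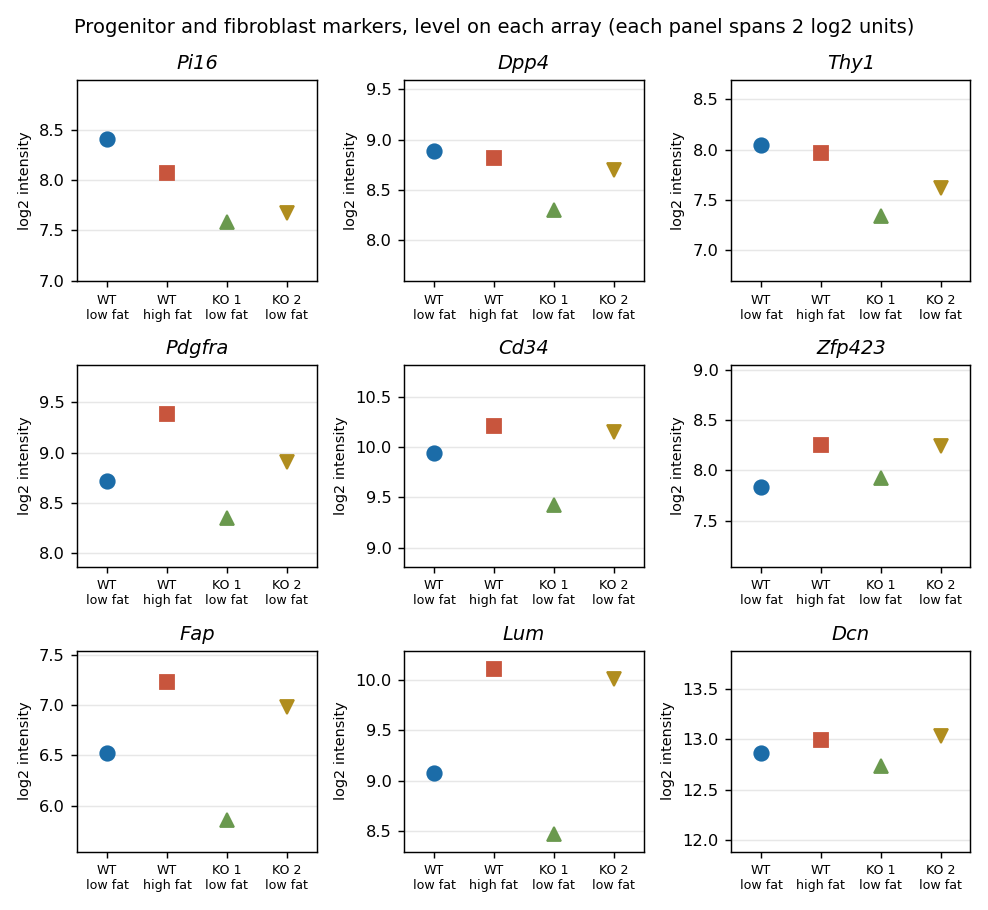
Level (log2 intensity, y axis) of each of the 9 members on the 4 arrays (x axis), 1 point per array, with every panel spanning the same 2 log2 units around its own middle. Pi16, Dpp4 and Thy1 have both KO points under both wildtype points, while Lum and Fap differ more between the KO arrays than any other member.

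The interstitial progenitor markers were Pi16 and Dpp4. Pi16, a secreted peptidase inhibitor that defines the early progenitor, was at 8.40 on the wildtype low-fat array, 8.07 on the wildtype high-fat array, and 7.59 and 7.67 on KO arrays 1 and 2. Both KO arrays lay close together and below both wildtype arrays (KO mean 7.63 ± 0.06, SD, n = 2). Against the wildtype low-fat array Pi16 was 1.76-fold lower on KO array 1 and 1.66-fold lower on KO array 2. It was the only member at least 1.5-fold lower on both, 1 of 9, while 0.77% of all tested genes were. At least 1.5-fold higher on both were 0 of 9 members and 0.584% of genes. The fitted difference was −0.78 (standard error 0.31, 95% interval −1.54 to −0.01), with an unadjusted p = 0.0481 and an adjusted p = 1 in limma.

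Dpp4, a surface peptidase that cleaves incretins and chemokines, was at 8.88 on the wildtype low-fat and 8.82 on the wildtype high-fat array, against 8.30 and 8.70 on KO arrays 1 and 2. The difference between diets in wildtype tissue, −0.06, was smaller than the SD of the KO pair (0.28). The KO difference from the low-fat wildtype array was −0.38 (standard error 0.34, limma adjusted p = 1), and its interval, −1.23 to 0.46, spans 0. With KO array 1 alone it was −0.58 and with KO array 2 alone −0.19. Thy1, the stromal surface marker, was at 8.05 and 7.96 on the wildtype low-fat and high-fat arrays and at 7.34 and 7.62 on KO arrays 1 and 2. Its difference was −0.57 (standard error 0.32, interval −1.38 to 0.24, limma adjusted p = 1), or −0.48 relative to the median of all genes. With KO array 2 alone it was −0.43 and with KO array 1 alone −0.71.

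Levels on both KO arrays under both wildtype levels were thus seen for 3 of 9 members, beside 25.2% of all tested genes, so the share among the members is near the background. Both KO arrays above both wildtype arrays were seen for 0 of 9 members and 3.41% of all genes. T and NK cells also carry THY1 and DPP4. Of their 10 listed markers, 9 had a probe set and 5 were tested, and all 5 were highest on the wildtype low-fat array, as Pi16, Dpp4 and Thy1 were. The summed intensity of those 9 was 503.6 on the wildtype low-fat array, 431.2 on the wildtype high-fat array, and 373.2 and 456.5 on KO arrays 1 and 2. Over all tested genes 27.9% were highest on that array, and so were the tested epididymal epithelium genes, 11 of 11. The filter on the mean partly fixed that last count, since a gene high on that array alone could pass it. Spint4 did so, at 11.35 on the wildtype low-fat array, 3.19 on the wildtype high-fat array, and 3.25 and 4.43 on KO arrays 1 and 2. The part of either list in the levels of Pi16, Dpp4 and Thy1 was not tested. Here as for every gene in whole tissue, fewer cells of a type and less RNA per cell cannot be told apart.

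PDGFRA and CD34 mark the progenitor pool more broadly. Pdgfra was at 8.71 on the wildtype low-fat array, 9.38 on the wildtype high-fat array, and 8.35 and 8.91 on KO arrays 1 and 2. The high-fat array was the highest and stood 1.59-fold above the low-fat wildtype array, whose level lay between those of the KO arrays. Cd34 was at 9.94 on the wildtype low-fat array, 10.20 on the wildtype high-fat array, and 9.42 and 10.15 on KO arrays 1 and 2. KO array 1 stood apart as the low one, 1.66-fold under KO array 2. Endothelium shares CD34, and its 10 markers had a median difference from the wildtype low-fat array of −0.04 with high fat and 0.05 and −0.02 on KO arrays 1 and 2. Single endothelial genes differed by more: Kdr, a receptor for vascular endothelial growth factor, was at 8.37, 7.93, 8.50 and 7.92 on the wildtype low-fat, wildtype high-fat and KO arrays 1 and 2, and Vwf, the von Willebrand factor gene, at 6.64, 7.01, 6.80 and 6.95. Their part in the level of Cd34 was not tested.

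Zfp423, the commitment regulator, was at 7.83 on the wildtype low-fat array, 8.25 on the wildtype high-fat array, and 7.92 and 8.24 on KO arrays 1 and 2. It was the one member whose lowest level was not on KO array 1, and the high-fat array exceeded the low-fat wildtype array 1.34-fold. The KO pair differed from the wildtype low-fat array by 0.25 (standard error 0.33, interval −0.57 to 1.06, limma adjusted p = 1). The array-wise values behind it were 0.09 and 0.41.

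The matrix and activation genes Lum, Fap and Dcn included the widest differences. Lum was at 9.07 on the wildtype low-fat array, 10.11 on the wildtype high-fat array, and 8.47 and 10.01 on KO arrays 1 and 2. Its high-fat level was 2.06-fold above the low-fat wildtype level, and KO array 2 was 2.90-fold above KO array 1, so that 2 arrays of 1 genotype and diet were further apart than the diets. Fap was at 6.53 on the wildtype low-fat array, 7.23 on the wildtype high-fat array, and 5.86 and 6.98 on KO arrays 1 and 2. The high-fat level exceeded the low-fat wildtype level 1.62-fold, and KO array 2 exceeded KO array 1 by 2.18-fold. Fap and its neighbour Dpp4 therefore differed on the high-fat array, by 0.70 for Fap and −0.06 for Dpp4 against the low-fat wildtype array, with 1 array per diet and no test. Dcn was at 12.86 on the wildtype low-fat array, 12.99 on the wildtype high-fat array, and 12.74 and 13.03 on KO arrays 1 and 2, and both wildtype levels lay inside the range of the KO pair. Its neighbour Lum thus had a range of 1.64 over the 4 arrays and Dcn one of 0.29.

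**Figure D2:**
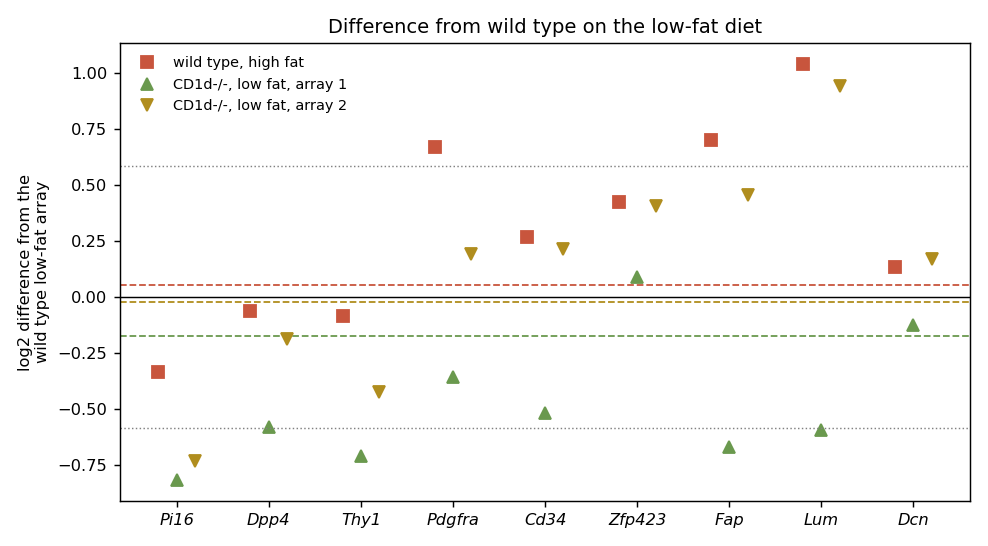
Log2 difference of each member from the wildtype low-fat array (y axis) on the wildtype high-fat array (squares) and on KO arrays 1 and 2 (triangles up and down), by gene (x axis). Dashed lines are the medians of all 11292 tested genes in the same colours and dotted lines mark 1.5-fold. Lum reaches 1.04 on the high-fat and 0.94 on KO array 2, and Pi16 is past 1.5-fold on both KO arrays.

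The first comparison is of the diets in wildtype tissue, with 1 array each and no test. Of the 9 members, 3 (Pdgfra, Lum and Fap) were 1.5-fold or more higher with high fat, as were 7.72% of all tested genes, and 0 were that much lower, beside 3.82% of genes. The members' median difference was 0.27, against 0.05 over all tested genes. Macrophage markers differed in the same comparison, 7 of 10 at least 1.5-fold higher, with a summed intensity of 9253.4 with low fat and 17388.3 with high fat. Their part in the members' values was not tested.

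The second comparison is of CD1d-/- with wildtype tissue on the low-fat diet. In limma 0 of 9 members passed the adjusted threshold of 0.05 in either direction, and 1, Pi16, had an unadjusted p under 0.05. Over all tested genes 0.0443% were past the adjusted threshold as lower and 0% as higher. At an unadjusted p under 0.05 they were 0.452% as lower and 0.363% as higher. Standard errors of the members ran from 0.31 for Pi16 to 0.64 for Lum, so a 1.5-fold difference lies inside the interval of each of them in at least 1 direction. The KO arrays gave different pictures. On KO array 1, 4 of 9 members (Pi16, Lum, Thy1 and Fap) were at least 1.5-fold lower than on the wildtype low-fat array, where 5.02% of all genes were, and 0 were that much higher, where 1.93% of genes were. The count was 5 with median centring, which added Dpp4, beside 5.36% of all genes. After quantile normalization it was 3, without Lum, beside 3.76% of all genes. The members' median on that array was −0.58, or −0.41 relative to all genes. On KO array 2, 1 of 9 (Pi16) was at least 1.5-fold lower and 1 of 9 (Lum) at least 1.5-fold higher, beside 4.6% and 5.54% of all genes, and the median was 0.19. For Pdgfra, Cd34, Dcn, Lum and Fap the KO arrays lay on opposite sides of the wildtype low-fat array. Their fitted differences, from −0.15 for Cd34 to 0.17 for Lum, average over that split. On KO arrays 1 and 2 it was −0.60 and 0.94 for Lum and −0.67 and 0.46 for Fap. Relative to the medians of all genes on those arrays, −0.17 and −0.02, Dcn was not split, at 0.05 and 0.19. Pdgfra, Cd34, Lum and Fap remained split. The share of all tested genes split in this way was not counted.

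The KO pair is the only replicate pair. The members' median difference of KO array 2 from KO array 1 was 0.40, beside 0.14 over all tested genes. On KO array 2, Cd34, Lum and Fap were at least 1.5-fold higher, 3 of 9, beside 14.8% of all tested genes. At least 1.5-fold lower were 0 of 9, beside 4.45%. After quantile normalization the same 3 members were called, beside 11.6% higher and 6.10% lower. The smallest gap was that of Pi16, 0.09, which became −0.01 after quantile normalization of the arrays. Relative to the median of all genes between these arrays, 0.14, the members' median was 0.25. KO array 1 was the lowest of the 4 arrays for 8 of 9 members and for 56.7% of all tested genes. After quantile normalization it was the lowest for 7 of 9 members and for 46.3% of genes. Macrophage markers also separated the pair, with summed intensities of 7360.8 and 15514.3 on KO arrays 1 and 2. The summed smooth muscle and pericyte markers did so in the other direction. Their part in the difference between the KO arrays was not tested.

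The third comparison sets the same KO arrays against the wildtype high-fat array, so it shares them with the second. Here both genotype and diet differ. The fitted differences were −0.87 for Lum (standard error 0.64), −0.81 for Fap (0.51), −0.75 for Pdgfra (0.37), −0.48 for Thy1 (0.32), −0.44 for Pi16 (0.31), −0.42 for Cd34 (0.41), −0.32 for Dpp4 (0.34), −0.18 for Zfp423 (0.33) and −0.11 for Dcn (0.32). The median of all tested genes was −0.16 for this difference. Relative to it Dcn was at 0.05 and Zfp423 at −0.01, and the rest ran from −0.71 for Lum to −0.16 for Dpp4. The members' differences varied between the KO arrays, where the medians of all genes were −0.23 and −0.08 on KO arrays 1 and 2. On KO arrays 1 and 2 respectively, Lum was at −1.64 and −0.10 against high fat, Fap at −1.37 and −0.24, Pdgfra at −1.03 and −0.48, and Cd34 at −0.79 and −0.05. Thy1 was at −0.63 and −0.34, Dpp4 at −0.52 and −0.12, Zfp423 at −0.33 and −0.02, and Dcn at −0.26 and 0.04. Pi16 was at −0.48 and −0.40. None of the 9 passed, each with an adjusted p = 0.999 in limma, and 0 had an unadjusted p under 0.05. The lowest unadjusted p, 0.0894 in limma, was that of Pdgfra. Over all tested genes 0.00886% passed as lower and 0% as higher, and 0.363% and 0.762% had an unadjusted p under 0.05 as lower and higher. The number of members at least 1.5-fold lower on both KO arrays was 0 of 9, beside 0.788% of all genes, and 0 of 9 were that much higher, beside 0.948%.

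Wildtype low-fat and KO array 1 were both below wildtype high-fat and KO array 2 for 6 of 9 members (Pdgfra, Cd34, Dcn, Lum, Zfp423 and Fap), and for 39.2% of all tested genes. The reverse held for 0 members and 20.9% of genes. This grouping was chosen after the values were seen. Of macrophage markers 9 of 10 showed it. Among lists described below, so did 15 of 17 activated fibroblast and matrix genes and 5 of 6 PDGF ligand and receptor genes. It was seen for 3 of 13 further interstitial progenitor markers, and for 2 of 10 endothelial markers.

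Other genes of the stroma were read from lists of related genes, excluding the members. Of 16 further interstitial progenitor markers, 15 had a probe set and 13 were tested. Their median difference from the wildtype low-fat array was −0.20 with high fat, and −0.24 and −0.35 on KO arrays 1 and 2. Relative to the medians of all tested genes these were −0.26, −0.06 and −0.33. The wildtype low-fat array was the highest of the 4 for 9 of 13, beside the same 27.9% of genes, and both KO arrays were below both wildtype arrays for 7 of 13, beside the 25.2% given above. Those 7 were Cd55, Creb5, Cd248, Ackr3, Efhd1, Ugdh and Mfap5, named after their values were seen. Cd55, which protects cells from complement, was at 8.98 and 8.78 on the wildtype low-fat and high-fat arrays and at 8.47 and 8.62 on KO arrays 1 and 2. The genes of this list with the widest range did not follow that order. Pcolce2, an enhancer of procollagen processing, was at 9.55, 10.38, 9.41 and 10.34 on the wildtype low-fat, wildtype high-fat and KO arrays 1 and 2. Sema3c, a semaphorin, was at 9.50, 9.98, 9.09 and 9.92 in the same array order, and the growth factor gene Bmp7 at 6.81, 6.23, 6.64 and 6.00. In limma 0 of 13 passed for KO against wildtype on the low-fat diet, and 0 had an unadjusted p under 0.05.

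Committed preadipocyte and F3-positive stromal genes, 14 of 14 tested, had medians of 0.21 with high fat and −0.18 and 0.12 on KO arrays 1 and 2. On KO array 1 that was −0.01 relative to all genes. Mme, the peptidase neprilysin, was at 10.10 and 10.11 on the wildtype low-fat and high-fat arrays and at 8.79 and 9.72 on KO arrays 1 and 2, so the diets were level and KO array 1 was low. Icam1, an adhesion molecule, was at 6.94, 7.33, 6.49 and 7.18 and Col15a1, a basement membrane collagen, at 10.10, 10.61, 9.92 and 10.35 in that array order. Among 19 tested regulators of adipose commitment the medians were −0.06, −0.25 and −0.14 with high fat and on KO arrays 1 and 2. On KO array 1 that was −0.07 relative to all genes. Both KO arrays were below both wildtype arrays for 8 of the 19, beside 25.2% of all tested genes. Ccn5, which encodes a partner of ZFP423, was at 8.70 and 9.96 on the wildtype arrays and at 8.33 and 10.15 on KO arrays 1 and 2. Prrx1, a mesenchymal homeobox gene, was at 9.02, 10.01, 8.45 and 9.76 across the same arrays. The BMP target Id1 ran the other way, at 8.21, 7.45, 8.44 and 7.52.

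The PDGF ligand and receptor genes, 6 of 6 tested, had medians of 0.34 with high fat and −0.22 and 0.20 on KO arrays 1 and 2. On KO array 1 that was −0.05 relative to all genes. With high fat 1 of 6, Pdgfa, was at least 1.5-fold higher, beside 7.72% of all tested genes. Pdgfa, which encodes a ligand of PDGFRA, was at 7.54, 8.28, 7.29 and 8.30 on the wildtype low-fat, wildtype high-fat and KO arrays 1 and 2. Pdgfrb, the partner receptor, was at 8.72, 9.26, 8.39 and 9.07, and the ligand gene Pdgfc at 8.29, 8.50, 7.86 and 8.35. Those 3 genes were lowest on KO array 1, as Pdgfra was. In the whole list 4 of 6 were, near the 56.7% of all tested genes. The ligand gene Pdgfb and the receptor-like gene Pdgfrl, named after their values were seen, were not lowest on KO array 1. Pdgfb was at 7.68, 8.15, 7.82 and 8.04 and Pdgfrl at 5.71, 5.80, 6.23 and 5.60 in the same array order.

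Of 14 further leucine-rich proteoglycan genes 8 were tested, with medians of 0.28 with high fat and −0.37 and 0.16 on KO arrays 1 and 2. On KO array 1 that was −0.20 relative to all genes. Fibromodulin (Fmod) was at 9.10, 8.86, 8.03 and 8.90 on the wildtype low-fat, wildtype high-fat and KO arrays 1 and 2. Ecm2 was at 7.91, 8.52, 7.51 and 8.09, and podocan (Podn) at 10.33, 9.56, 9.96 and 9.49, lowest on KO array 2. Activated fibroblast and matrix genes, 17 tested of 19 listed, had medians of 0.45, −0.44 and 0.37 with high fat and on KO arrays 1 and 2. On KO array 1 that was −0.27 relative to all genes. Of the 17, 12 were at least 1.5-fold higher on KO array 2 than on KO array 1, with 0 lower, beside 14.8% and 4.45% of all tested genes. Timp1, a metalloproteinase inhibitor, was at 5.85, 7.31, 5.65 and 7.34, the collagen VI chain gene Col6a3 at 8.29, 9.05, 7.50 and 8.75, and the metalloprotease gene Adam12 at 7.0, 7.83, 6.35 and 7.53. Their array order was that of Fap for Col6a3 and Adam12.

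Other stromal surface genes, 9 tested of 10 listed, had medians of 0.21, −0.19 and 0.22. On KO array 1 that was −0.02 relative to all genes. Cd44, a hyaluronan receptor also carried by leukocytes, was at 7.05, 8.79, 6.36 and 8.29, Cd24a at 9.38, 8.39, 10.32 and 8.75, and the tetraspanin gene Cd9 at 8.05, 9.04, 8.21 and 8.66. Of the further dipeptidyl and prolyl peptidase genes 4 were tested, and 0 of 4 differed 1.5-fold between the diets, beside 7.72% of all genes higher and 3.82% lower. Dpp7 was at 8.81, 9.13, 8.25 and 8.85, Prep at 9.08, 9.55, 8.74 and 9.47, and Dpp8 at 9.61, 9.76, 9.39 and 9.65. In all of the stromal lists named here, limma passed 0 genes for KO against wildtype on either diet, with 0 unadjusted p under 0.05.

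**Figure D3:**
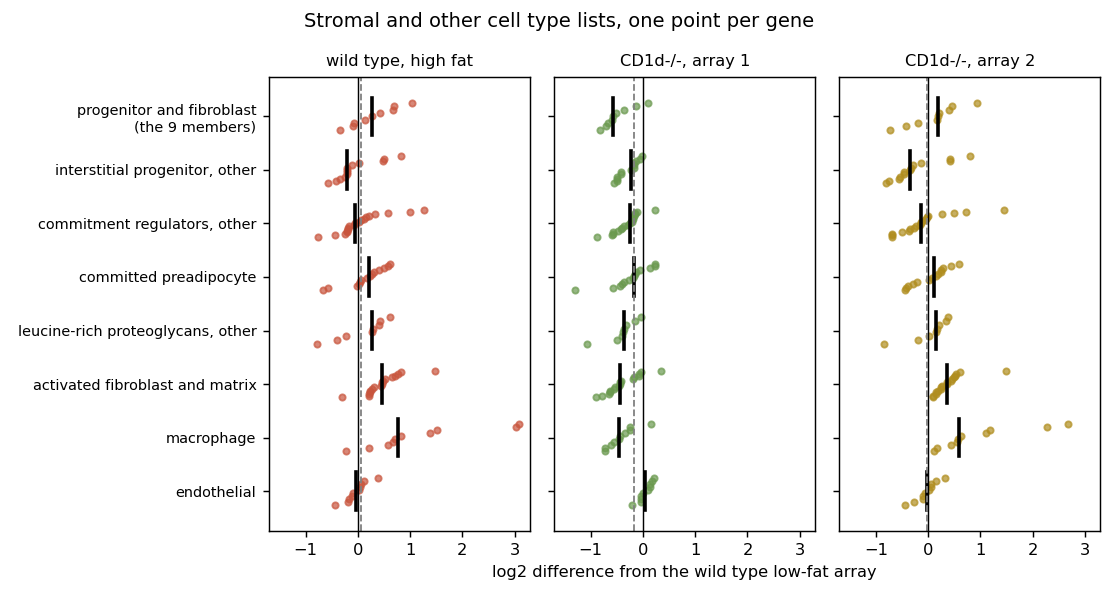
Log2 difference from the wildtype low-fat array (x axis) for each tested gene of 8 lists (rows) on the wildtype high-fat array, KO array 1 and KO array 2 (panels), 1 point per gene, with a bar at the list median and a dashed line at the median of all tested genes. Activated fibroblast genes have medians of 0.45, −0.44 and 0.37, and other interstitial progenitor markers −0.20, −0.24 and −0.35.

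Markers of the other cells of the fat pad were summed in the same way. Macrophage markers reached 1.88-fold and 1.68-fold of the wildtype low-fat sum on the high-fat array and KO array 2, and 0.795-fold on KO array 1. The 9 members summed to 1.16-fold, 1.14-fold and 0.849-fold on those arrays. Most of that sum was Dcn, with 7451.3 of 10787.3 on the wildtype low-fat array, so it says little of the other members. Itgax, an integrin of macrophages and dendritic cells, was at 6.43, 9.45, 5.72 and 8.72, Trem2 at 6.86, 9.94, 6.52 and 9.53 and Cd68 at 10.09, 11.61, 9.53 and 11.28 on the wildtype low-fat, wildtype high-fat and KO arrays 1 and 2. Mesothelial cells, which cover the pad and share matrix genes with fibroblasts, had 10 tested markers with medians of −0.22, −0.50 and −0.16 with high fat and on KO arrays 1 and 2. Gpm6a was at 7.99, 8.25, 6.95 and 8.50, while the keratin genes Krt18 and Krt8, also made by epididymal epithelium, were highest on KO array 1, at 8.74 and 9.36. Cnn1, a smooth muscle protein, was at 11.03 on KO array 1 and at 8.05, 5.59 and 5.12 on the wildtype low-fat, wildtype high-fat and KO array 2. B cell markers, 3 tested, had medians of 0.06, −0.33 and 0.14. Schwann cell markers were below the filter, 0 tested of 4 listed. The part of any of these cells in the members' levels was not tested.

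**Figure D4:**
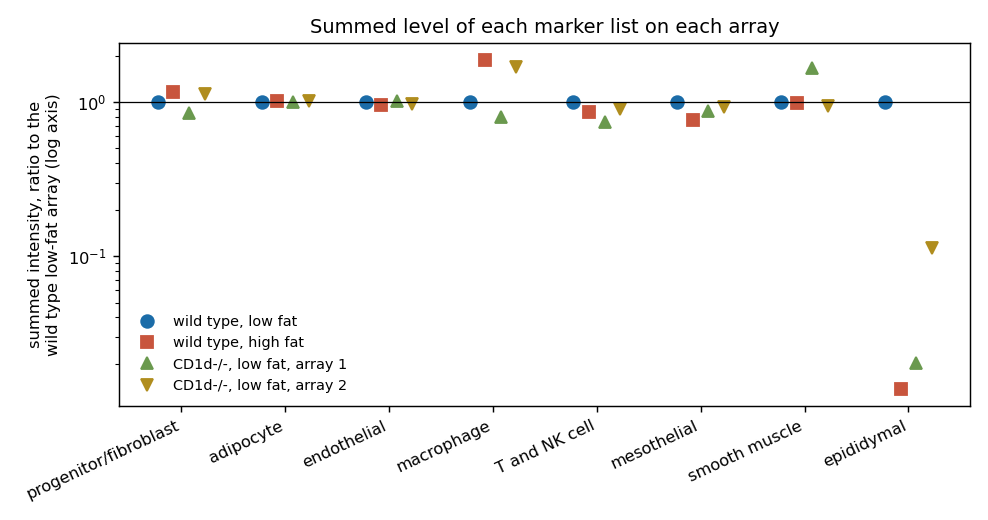
Summed intensity of each marker list on each array as a ratio to the wildtype low-fat array (y axis, log scale), by list (x axis), 1 point per array. Adipocyte and endothelial sums stay between 0.957 and 1.02, macrophage sums range from 0.795 to 1.88, and the epididymal sum is 0.0137 on the wildtype high-fat array.

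The genes whose profile over the 4 arrays was most like a member were found for the 3 members with the widest range, by Euclidean distance between log2 values centred on each gene's mean, among 11019 named genes. For Lum they were Serpinb6b (0.051), Dock2 (0.052) and Dcbld2 (0.065), against a median distance of 1.24. For Fap they were Ptafr (0.048), Aldh1a2 (0.054) and Xylt1 (0.056), against a median of 0.915. For Pdgfra they were Cacna1a (0.018), Cpeb4 (0.029) and Arhgap30 (0.036), against a median of 0.638. Dock2 and Ptafr are known from leukocytes, and Xylt1 starts proteoglycan chain synthesis. With 4 arrays, many genes have close profiles, and likeness here is a description only.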

How the data were processed

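RNA of pooled epididymal fat was labelled with biotin and hybridized to 4 arrays. The authors deposited intensities on a linear scale, made by RMA (robust multi-array average), and the submitters' processing notes name R 2.15.0. The genome build of the probe sets is not given in the sources used. Their log2 was taken, with no other scaling. Of 35556 probe sets, 21218 had 1 symbol in the platform annotation, 1881 several and 12457 none listed, and only the first kind was used. Genes with a mean at or above the 40th percentile were tested with limma 3.58.1 in R 4.3.3, as group means with eBayes, two-sided, with Benjamini-Hochberg adjustment over all tested genes. The spread rested on 1 residual degree of freedom, that of the KO arrays, and 4.62 of the prior, so the lone wildtype arrays were assumed to vary alike. The steps were tested on simulated data. The number of unmapped value columns was 0.

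The members and lists were chosen with earlier results of these data known. Named genes were all members, at most 3 genes of each list by range over the arrays, and the 3 nearest profiles of 3 members. Exceptions are named as such. The number of arrays limits precision. Figures used matplotlib 3.10.9 in Python 3.11.15.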

Additional observations from a re-analysis of the deposited data

How the results depend on the processing

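Of 36 member differences, 33 stayed within the SD of the KO pair and kept their direction after quantile normalization. All 36 did so with an offset of 16 and after median centring, which shifts whole arrays and moved no difference by over 0.0226. Averaging probe sets could not change a member, since each had 1 probe set. Dcn turned from 0.02 to −0.0051 for KO against wildtype on the low-fat diet after quantile normalization, and Pi16 moved to −0.35 for KO against wildtype with high fat and to −0.01 between the KO arrays. With 1 KO array left out, the difference from the wildtype low-fat array ranged from −0.36 to 0.19 for Pdgfra, −0.52 to 0.21 for Cd34, −0.13 to 0.17 for Dcn, −0.60 to 0.94 for Lum and −0.67 to 0.46 for Fap, and that of Dcn from the high-fat array from −0.26 to 0.0361. Limma had no residual degree of freedom with a KO array left out and gave no test there. Over 10 settings the lowest adjusted p of a member was 1 against the low-fat and 0.988 against the high-fat wildtype array.

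Over all genes, limma passed 5 for KO against wildtype on the low-fat diet, 0 without the low-signal filter, 2 with a filter at the 60th percentile, 3 with averaged probe sets, 1 with median centring, 3 with quantile normalization and 1 with both wildtype arrays as 1 group. The last setting was chosen after seeing the data, and gave Pi16 −0.61 (standard error 0.18, limma adjusted p = 0.970). Against the high-fat array limma passed 1 gene, 0 without the filter and 4 with the filter at the 60th percentile. Genes at least 1.5-fold apart between the diets numbered 1303, or 779 with the filter at the 60th percentile and 431 at 2-fold. Between the KO arrays they were 2177, or 612 at 2-fold. On both KO arrays against the low-fat array they were 153, or 287 without the filter, 246 and 50 with filters at the 20th and 60th percentiles, and 43 at 2-fold. Against the high-fat array they were 196, or 361, 322, 61 and 71 in that order. Quantile normalization changed the split between the KO arrays from 1674 higher and 503 lower to 1308 higher and 689 lower.

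No paired analysis was possible because each wildtype group has 1 array and only the KO arrays carry numbers.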
